A study of Caenorhabditis elegans with 24 samples.

Results

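Transcripts of whole worms in which the Rag GTPase RAGA-1 was targeted for degradation in neurons were compared with those of wild type worms, with both strains on auxin. The comparison takes 8 of the 24 libraries of the series, 4 of RAGA-1::AID Neuronal on auxin and 4 of wild type on auxin, chosen by their labels and by no measured value. Of the 21982 genes in the table, 13150 reached 10 normalized counts in 4 or more of the 24 libraries and were tested. A normalized count is a read count divided by a size factor that evens out depth. RAGA-1::AID Neuronal carries the allele wbm40, a degron and EmGFP fused to endogenous *raga-1*, and the transgene wbmIs83, in which the *rab-3* promoter drives TIR1 in neurons. Wild type is N2, which carries neither. Animals of both groups received 0.15 mM auxin from day 1 of adulthood, and at day 3 each sample was made from about 400 worms. The same strains on ethanol control plates, 4 libraries of RAGA-1::AID Neuronal and 4 of wild type, show what the strain carries without auxin. The other 8 libraries are of RAGA-1::AID Somatic, with and without auxin, and served for the shared estimate of the spread and for values given beside the main ones.

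RAGA-1 is the worm RagA GTPase, which brings the kinase complex mTORC1 to the lysosome when amino acids are present. mTORC1 drives protein synthesis and growth and holds back autophagy, and its loss extends lifespan in several animals. TIR1 is a plant F-box protein that, once auxin binds it, sends proteins carrying the degron to the proteasome, so that the promoter of TIR1 sets the tissue. The degron acts on the protein and not on the transcript. RNA came from whole animals, in which neurons are a small share of the tissue, so fewer cells of a type and less RNA per cell cannot be told apart. Degron, TIR1 and auxin occur together only in RAGA-1::AID Neuronal on auxin. The main comparison alone therefore cannot tell depletion from other differences between the strains, and the comparison without auxin and the interaction of strain and auxin are given beside it.

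Depth recovered from the values was 24569154 to 31923750 reads per library in RAGA-1::AID Neuronal on auxin and 30892897 to 32582050 in wild type on auxin. Markers of neurons were detected (13 of 13 tested, 0 called), as were those of body wall muscle, intestine and germline, while 0 of 8 sperm markers in the table passed the filter. The summed level of the 13 neuron markers overlapped between the groups, at 17141 to 17876 normalized counts in RAGA-1::AID Neuronal and 17592 to 17978 in wild type. Sums over 11 germline and oocyte markers did not overlap, at 318849 to 326652 in RAGA-1::AID Neuronal and 330883 to 339156 in wild type, and neither did those over 8 embryo markers, at 7524 to 8066 and 8192 to 8383 in the same order. The embryo sum is carried by *pal-1*, at 3899 ± 156 in RAGA-1::AID Neuronal and 4238 ± 20.9 in wild type (SD, n = 4 each), while 6 of the 8 markers had a log2 fold change above 0, with a median of 0.16. Sums over 7 pharynx markers ran the other way, at 2191 to 2794 in RAGA-1::AID Neuronal and 1656 to 2112 in wild type. Sums over 5 markers of dopaminergic neurons were 994 to 1113 in RAGA-1::AID Neuronal and 823 to 964 in wild type, and those over 4 coelomocyte markers 3422 to 3649 in RAGA-1::AID Neuronal and 3729 to 3851 in wild type, again without overlap. Of the dopaminergic markers *cat-4* alone, at 749 ± 51.2 in RAGA-1::AID Neuronal and 567 ± 54.2 in wild type (SD, n = 4 each), accounts for the higher sum, as 3 of the 5 were below 0 and the median log2 fold change was -0.02. Intestine, muscle and epidermis sums overlapped. The part of these shifts in the results below was not tested.

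On auxin, 156 of 13150 genes (1.19%) differed between RAGA-1::AID Neuronal and wild type in limma (p of at most 0.01 after Benjamini-Hochberg adjustment over all genes tested), 117 higher (0.89% of genes tested) and 39 lower (0.297%). The rises were larger than the falls. Their median log2 fold change was 0.63, with a range of 0.14 to 5.94, and 33 of the 117 were at 1 or more. The falls had a median of -0.26 and a range of -1.27 to -0.08, with 2 at -1 or less. Values of the 4 RAGA-1::AID Neuronal and the 4 wild type libraries did not overlap for 155 of the 156 genes, against 13.3% of all genes tested. Where groups do not overlap, every same-numbered pair of libraries must move the same way, as it did for all 156. The genes were called on these same 8 libraries, so neither count is separate support for the calls. All 156 genes were protein coding. They covered every chromosome, from 0.75% of the genes tested on chromosome III to 1.66% on X. The count depended on the libraries: it was 59, 63 and 74 without RAGA-1::AID Neuronal auxin replicates 4, 2 and 3, and 66, 76, 96 and 74 without wild type auxin replicates 1, 2, 3 and 4, while without RAGA-1::AID Neuronal auxin replicate 1 it was 143. Of the 70 called genes that the naming rule picks out, 26 kept their calls in all 8 of these fits, 9 in 4 to 7 and 35 in fewer, and no adjusted p among the 70 exceeded 0.0424 in any of them. Over the 500 genes of highest variance, the centres of the groups lay 25.99 log2 units from each other (exact permutation p = 0.0286, the smallest that 4 against 4 allows). The SD of single libraries around the centre of their own group, pooled over both groups, was 23.9 on the same scale. Over the 100 genes of highest variance the exact permutation p was 0.0857.

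**Figure D1:**
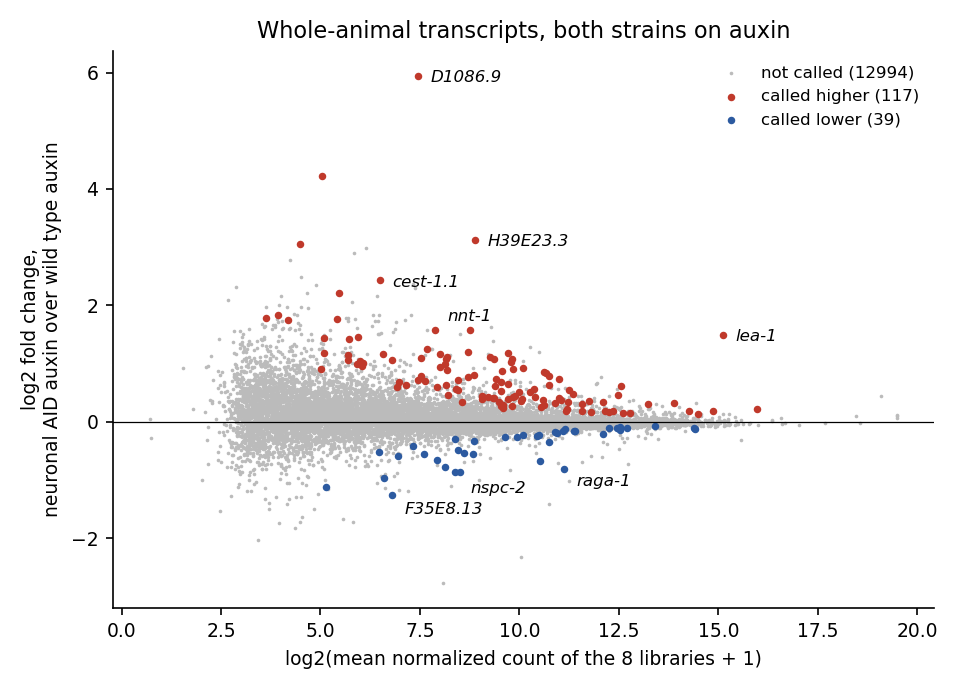
Each point is 1 of the 13150 genes tested, with its mean level over the 8 libraries on the x axis (log2 of normalized count plus 1) and its log2 fold change, RAGA-1::AID Neuronal auxin over wild type auxin, on the y axis. The 117 genes called higher (red) reach 5.94, whereas of the 39 called lower (blue) 2 lie at -1 or less.

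The targeted gene, *raga-1* (WBGene00006414, WBcel235 chromosome II, 11301359 to 11302776), had fewer counts in the tagged strain whether auxin was present or not. It had 1655, 1652, 1611 and 1552 normalized counts in replicates 1 to 4 of RAGA-1::AID Neuronal on auxin, against 2777, 2871, 2798 and 2921 in wild type on auxin. The groups lie far apart, and the log2 fold change was -0.81 (standard error 0.04, adjusted p = 5.5e-11, limma). Without auxin it averaged 1675 ± 54.9 in RAGA-1::AID Neuronal and 2838 ± 174 in wild type (SD, n = 4 each), a log2 fold change of -0.76 (adjusted p = 2.3e-10, limma). The interaction of strain and auxin was -0.05 on the log2 scale and was not called (adjusted p = 0.95, limma). Sequence of the degron and EmGFP is not part of the reference transcripts, and how many reads that costs was not tested. The values fit the labelled strains and say nothing of how much protein was left. *samp-1*, an inner nuclear membrane protein gene whose first base lies at 11302891, just past *raga-1*, was also lower, at 4099 ± 108.4 normalized counts in RAGA-1::AID Neuronal and 4731 ± 107 in wild type on auxin (SD, n = 4 each, log2 fold change -0.21, adjusted p = 3.9e-03 from limma, named after its values were seen). Its log2 fold change without auxin was -0.12.

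Beyond *raga-1*, transcripts of the mTORC1 pathway did not pass the test: of 30 genes tested, 0 rose and 1 fell, which was *raga-1*, and the median log2 fold change was -0.01. *let-363*, which encodes the mTOR kinase itself, had 9908 ± 302 normalized counts in RAGA-1::AID Neuronal and 9777 ± 358 in wild type (SD, n = 4 each, log2 fold change 0.02, adjusted p = 0.86, limma). The S6 kinase gene *rsks-1*, whose product mTORC1 phosphorylates, stood at 8490.0 ± 210.2 in RAGA-1::AID Neuronal and 8396 ± 242 in wild type, a log2 fold change of 0.02 (adjusted p = 0.83, limma). The closest of the others to the threshold were *lmtr-3*, a Ragulator subunit, with -0.10 on the log2 scale, *aak-1*, a catalytic subunit of AMPK, with -0.12, and *aakb-1*, a beta subunit of AMPK, with 0.26 (adjusted p of 0.13 to 0.18, limma). Among genes tied to growth downstream of mTORC1, 0 were called of 81 cytosolic ribosomal protein genes, with log2 fold changes from -0.06 to 0.07, of 33 ribosome biogenesis genes and of 45 translation factor genes. At the 1.19% called over all genes, lists of this size would hold few calls or none. Endogenous *rab-3*, whose promoter and 3′ UTR are in the TIR1 transgene, had 79.3 ± 17.8 normalized counts in RAGA-1::AID Neuronal and 63.7 ± 8.97 in wild type, a difference within the spread (adjusted p = 0.38, limma).

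The rise with the smallest adjusted p was that of *lea-1* (WBGene00002263, chromosome V, 10011923 to 10028168), which encodes a late embryogenesis abundant protein of the kind that protects cells during desiccation. It had 52764, 52809, 47445 and 55394 normalized counts in RAGA-1::AID Neuronal on auxin, against 14474, 18057, 20470.3 and 21948 in wild type on auxin. Every RAGA-1::AID Neuronal library lay above the highest wild type library by more than the whole range within either group. The log2 fold change was 1.49 (standard error 0.13, adjusted p = 3.7e-07, limma), and the call held with each of the 8 libraries left out. Without auxin the groups overlapped, at 18606 ± 2042 in RAGA-1::AID Neuronal and 18392 ± 2514 in wild type (SD, n = 4 each, log2 fold change 0.02). The strain difference on auxin exceeded that without auxin by 1.47 on the log2 scale (interaction adjusted p = 4.8e-04, limma).

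*lea-1* belongs to a list of DAF-16 targets and genes downstream of DAF-16. DAF-16 is the FOXO transcription factor that insulin signalling holds in check, and its targets serve stress resistance and metabolism. Of 30 members tested, 5 rose and 0 fell (16.7% higher, against 0.89% of all genes), and 24 had a log2 fold change above 0, with a median of 0.55 against 0.00 over all genes tested. *nnt-1*, the mitochondrial transhydrogenase that makes NADPH, had 312, 376, 345 and 353 normalized counts in RAGA-1::AID Neuronal, against 65.2, 164, 134 and 121.9 in wild type. The highest wild type library was below the lowest RAGA-1::AID Neuronal library, and the log2 fold change was 1.58 (standard error 0.23, adjusted p = 4.6e-04, limma). *pud-4*, one of the genes named for being up in *daf-2* mutants, had 1205, 1233, 1324 and 929 in RAGA-1::AID Neuronal, against 462, 659, 541 and 421 in wild type. Again the groups did not overlap (log2 fold change 1.18, standard error 0.15, adjusted p = 1.0e-04, limma). The other called members were *hil-1*, a linker histone described below, and *sip-1*, a small heat shock protein of the germline and embryo, at 68791 ± 1733 in RAGA-1::AID Neuronal and 59253 ± 1237 in wild type (SD, n = 4 each, log2 fold change 0.22, adjusted p = 4.9e-03, limma).

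The best known DAF-16 targets were not among the calls. *sod-3*, the mitochondrial superoxide dismutase often used as a reporter of DAF-16, had a log2 fold change of 0.88 with an adjusted p of 0.055 in limma, and *mtl-1*, a metallothionein, 1.63 with 0.019. Without auxin the list had a median of 0.05 and 0 calls. *lea-1*, *nnt-1* and *pud-4* kept their calls with each of the 8 libraries left out, while *sip-1* kept its call in 2 of these 8 fits, with an adjusted p of up to 0.022 without wild type auxin replicate 1. Of the 11 small heat shock protein genes, chaperones that bind unfolding proteins, 10 had a value above 0 and *sip-1* alone was called (9.09%, against 0.89% of all genes called higher). *hsp-12.2* had a log2 fold change of 0.52 (adjusted p = 0.055, limma), whereas *hsp-12.6* and *hsp-12.1* had 0.72 and 0.52 at under 25 normalized counts in each of the 8 libraries. Insulin pathway genes held 0 calls among 15, and insulin-like peptides 0 among 16. At the 1.19% called over all genes, lists of this size would hold few calls or none.

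**Figure D2:**
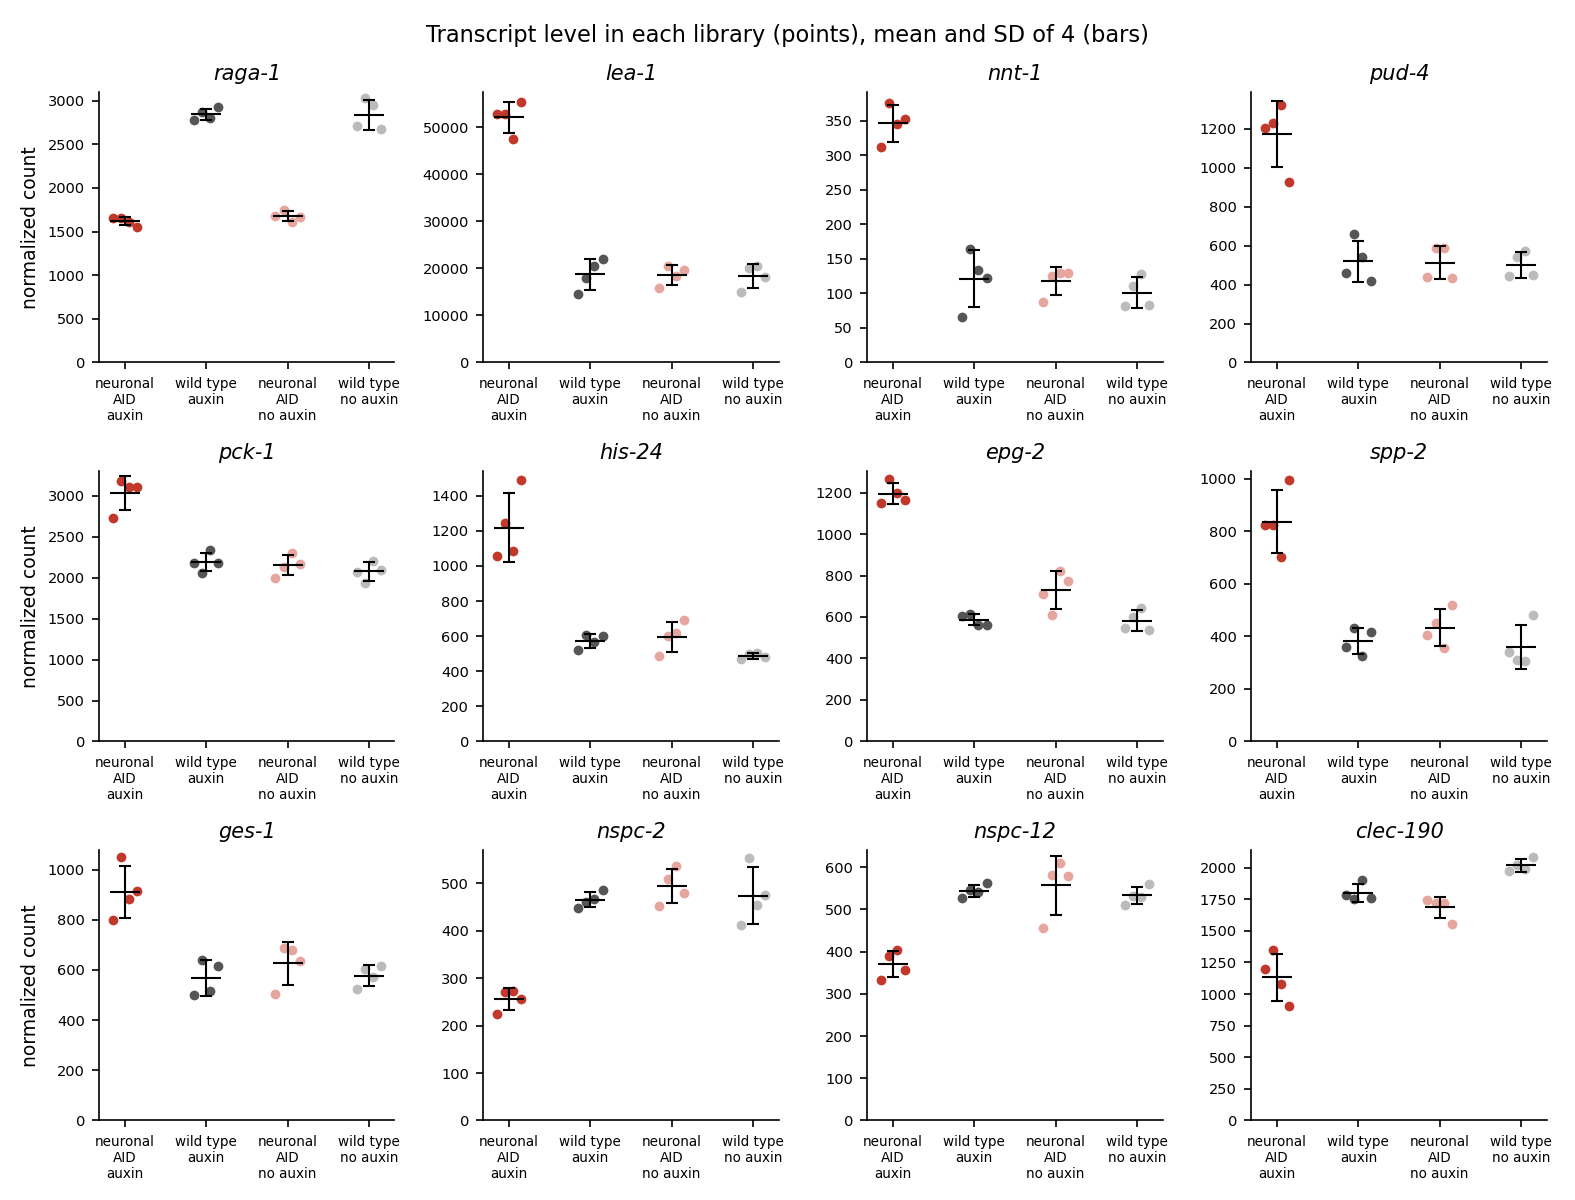
Normalized counts of 12 genes in each library (points, replicates 1 to 4 from left to right within a group), with the mean and SD of 4 libraries (black), for RAGA-1::AID Neuronal and wild type on auxin and then both without auxin. *lea-1*, *nnt-1*, *pud-4*, *pck-1*, *his-24*, *epg-2*, *spp-2* and *ges-1* are high and *nspc-2*, *nspc-12* and *clec-190* low in RAGA-1::AID Neuronal on auxin, while *raga-1* is low in this strain with and without auxin. *clec-190* was also lower in this strain without auxin, at 1557 to 1743 against 1971 to 2080 in wild type, but was not called there.

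Among 40 genes of glycolysis, gluconeogenesis and the glyoxylate cycle, 4 rose and 1 fell (12.5% called, against 1.19% of all genes), and the median was 0.00. Both genes for phosphoenolpyruvate carboxykinase, the enzyme that commits carbon to gluconeogenesis, were among the rises. *pck-1* had 2732, 3186, 3101 and 3112 normalized counts in RAGA-1::AID Neuronal, against 2179, 2062, 2337 and 2178 in wild type, with no overlap (log2 fold change 0.47, standard error 0.06, adjusted p = 4.1e-05, limma). *pck-2* had 16471, 16994, 16909 and 17107 in RAGA-1::AID Neuronal, against 12979, 12774, 14396 and 14175 in wild type (log2 fold change 0.31, adjusted p = 1.1e-03, limma). The lowest RAGA-1::AID Neuronal library again exceeded the highest wild type one, and both calls held with each of the 8 libraries left out. The third was *nnt-1*, the transhydrogenase already counted among the DAF-16 targets. It is not an enzyme of these pathways but is in the list, so it adds to the 12.5%. The fourth was *gpd-3*, a glyceraldehyde-3-phosphate dehydrogenase, at 4897 ± 203 in RAGA-1::AID Neuronal and 3873 ± 363 in wild type (SD, n = 4 each, log2 fold change 0.34, adjusted p = 2.9e-03, limma). *gpd-3* is close in sequence to other *gpd* genes, so that its reads may be shared, and its call was kept in 4 of the 8 leave-one-out fits (adjusted p = 0.014 without RAGA-1::AID Neuronal auxin replicate 3). *hxk-1*, a hexokinase, which phosphorylates glucose at the start of glycolysis, was the fall, by 0.08 on the log2 scale (adjusted p = 6.4e-03, limma).

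Of 103 genes of lipid synthesis, storage and breakdown, 4 rose and 0 fell (3.88% against 0.89% of all genes), with a median of 0.04. A pair of desaturases of fatty acid synthesis were higher. *fat-6*, a stearoyl-CoA desaturase, had 6541, 7168, 6017 and 6598 normalized counts in RAGA-1::AID Neuronal, against 4640.0, 4896, 4686 and 4804 in wild type, without overlap (log2 fold change 0.47, standard error 0.09, adjusted p = 3.5e-03, limma). *fat-2*, which makes linoleic from oleic acid, averaged 10543 ± 513 in RAGA-1::AID Neuronal and 8574 ± 807 in wild type (SD, n = 4 each, log2 fold change 0.30, adjusted p = 6.0e-03, limma). The lysosomal lipase gene *lipl-4* had 26.8, 66.1, 60.1 and 42.6 in RAGA-1::AID Neuronal, against 11.01, 16.3, 17.4 and 22.9 in wild type. These counts are low and spread over more than the width of the wild type group, though the groups did not overlap (log2 fold change 1.44, standard error 0.29, adjusted p = 6.7e-03, limma). *acs-13*, an acyl-CoA synthetase, rose by 0.14 on the log2 scale (adjusted p = 1.2e-03, limma), a small shift at 24290.5 ± 445 in RAGA-1::AID Neuronal and 22084 ± 473 in wild type (SD, n = 4 each). Its call held with each library left out, whereas those of *fat-6*, *lipl-4* and *fat-2* held in 3, 2 and 1 of the 8 fits and reached adjusted p of 0.018, 0.033 and 0.028 without RAGA-1::AID Neuronal auxin replicate 2. The lipid droplet gene *plin-1*, at 13936 ± 148 in RAGA-1::AID Neuronal and 12658 ± 555 in wild type, did not pass (log2 fold change 0.14, adjusted p = 0.016, limma).

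Of 41 genes of amino acid breakdown, 2 rose and 0 fell (4.88% against 0.89% of all genes), and the median was 0.04. *hgo-1*, which opens the ring of homogentisate in tyrosine breakdown, had a log2 fold change of 0.27 (adjusted p = 8.1e-03, limma), and *pccb-1*, a subunit of propionyl-CoA carboxylase, one of 0.15 (adjusted p = 9.9e-03, limma). Both calls were near the threshold and held in 1 and 0 of the 8 leave-one-out fits. *dbt-1*, of branched-chain amino acid breakdown, and *cbs-1*, a cystathionine beta-synthase, had values of -0.10 and 0.32 and did not pass. The gut esterase gene *ges-1*, a classical marker of the intestine, had 801, 1051, 883 and 914 normalized counts in RAGA-1::AID Neuronal, against 499.7, 640.2, 517 and 615 in wild type. It was higher in all 4 libraries than in any wild type library (log2 fold change 0.68, standard error 0.10, adjusted p = 7.1e-04, limma) and stayed called with each library left out. It was the only one of the 11 intestine markers called (9.09%, against 0.89% of all genes called higher). *vit-5* and *vit-6*, the abundant yolk protein genes of the intestine, had log2 fold changes of 0.09 and 0.11 (adjusted p = 0.39 and 0.50, limma), and the peptide transporter gene *pept-1* had 78.4 ± 6.33 in RAGA-1::AID Neuronal and 152 ± 28.5 in wild type (SD, n = 4 each, log2 fold change -0.93, adjusted p = 0.011, limma).

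Linker histones bind the DNA between nucleosomes. Of 9 tested, 4 rose and 0 fell, 44.4% against 0.89% of all genes, and the median was 0.51. *his-24* had 1057, 1243, 1086 and 1490.0 normalized counts in RAGA-1::AID Neuronal, against 518, 605, 565 and 599 in wild type (log2 fold change 1.08, standard error 0.19, adjusted p = 2.4e-03, limma). *hil-3* had 302, 363, 364 and 449 in RAGA-1::AID Neuronal, against 165, 218, 158 and 199 in wild type (log2 fold change 0.99, standard error 0.17, adjusted p = 1.9e-03, limma). For both genes the lowest RAGA-1::AID Neuronal library lay well above the highest wild type one. *hil-2* averaged 1202 ± 71.3 in RAGA-1::AID Neuronal and 843 ± 28.7 in wild type (log2 fold change 0.51, adjusted p = 1.8e-04, limma), and *hil-1* 243 ± 42.1 and 149 ± 21.5 in the same order (SD, n = 4 each, log2 fold change 0.70, adjusted p = 8.3e-03, limma). *hil-4* and *hil-5*, with values of -0.07 and -0.05, did not pass the test, and as they are the most abundant the sum over the family overlapped, at 23549 to 24907 in RAGA-1::AID Neuronal and 23454 to 24209 in wild type. The call of *hil-2* held in all 8 leave-one-out fits and those of *hil-3*, *his-24* and *hil-1* in 7, 6 and 1, with adjusted p of 0.012 and 0.013 for *hil-3* and *his-24* without RAGA-1::AID Neuronal auxin replicate 4 and 0.039 for *hil-1* without replicate 2. Without auxin the list had a median of 0.16 with 0 calls, and no member was called in the interaction.

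Of 30 autophagy genes, which serve the breakdown of cell contents in lysosomes, 2 rose and 0 fell (6.67% against 0.89% of all genes), and the median was -0.02. *epg-2*, an adaptor that brings P granule proteins of the embryo to autophagosomes, had 1151, 1267, 1196 and 1165 normalized counts in RAGA-1::AID Neuronal, against 605, 615, 562 and 564 in wild type. The level in RAGA-1::AID Neuronal was about 2-fold that in wild type (log2 fold change 1.03, standard error 0.15, adjusted p = 6.0e-04, limma) and the call held with each library left out. *lgg-1*, the ubiquitin-like protein that coats autophagosomes, had 7379, 7326, 7535 and 7238 in RAGA-1::AID Neuronal, against 6847, 6727, 6635 and 6439 in wild type, a small shift without overlap (log2 fold change 0.15, adjusted p = 3.1e-03, limma). It kept its call in 6 of the 8 leave-one-out fits and lost it without wild type auxin replicate 4 or RAGA-1::AID Neuronal auxin replicate 3 (adjusted p = 0.015 each, limma). *epg-4* and *vps-15*, with values of -0.09 and -0.07, did not pass.

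Of 28 lysozyme and saposin genes, which act against bacteria in the gut, 4 rose and 0 fell (14.3% against 0.89% of all genes), and 25 were above 0, with a median of 0.21. *spp-2* had 823, 825, 701 and 994 normalized counts in RAGA-1::AID Neuronal, against 361, 433, 326 and 416 in wild type (log2 fold change 1.12, standard error 0.15, adjusted p = 2.6e-04, limma). *spp-5*, which lies next to it on chromosome X, had 7278, 6977, 7051 and 7818 in RAGA-1::AID Neuronal, against 5091, 4499, 4335 and 5205 in wild type (log2 fold change 0.61, standard error 0.08, adjusted p = 2.7e-04, limma). Neither gene's groups overlapped and both kept their calls in all 8 leave-one-out fits. *spp-1* and the lysozyme *lys-8* had log2 fold changes of 0.88 and 0.35 (adjusted p = 6.7e-03 and 9.0e-03, limma) and kept theirs in 2 and 0 of the 8.

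Transthyretin-related genes, a nematode family of small secreted proteins, had 5 rises and 0 falls among 46 tested (10.9% against 0.89% of all genes), with 38 above 0 and a median of 0.19. *ttr-5* had 407, 427, 421 and 405 normalized counts in RAGA-1::AID Neuronal, against 283, 286, 285 and 278 in wild type. Both groups were tight, and the log2 fold change was 0.55 (standard error 0.05, adjusted p = 4.7e-06, limma). *ttr-25*, *ttr-46* and *ttr-48* had log2 fold changes of 0.44, 0.34 and 0.51 (adjusted p = 1.1e-03, 3.8e-03 and 4.7e-03, limma), and *ttr-23*, named after its values were seen, 0.79 (adjusted p = 9.5e-03). *ttr-5* and *ttr-25* kept their calls with each library left out, *ttr-46* and *ttr-48* in 3 and 2 of the 8 fits.

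Cuticle collagens, the proteins of the worm's outer coat, had 4 rises and 0 falls among 83 tested (4.82% against 0.89% of all genes), with 62 above 0 and a median of 0.29. *col-103* had 1661, 2434, 2255 and 2396 normalized counts in RAGA-1::AID Neuronal, against 1312, 1311, 1185 and 1238 in wild type (log2 fold change 0.78, standard error 0.13, adjusted p = 1.5e-03, limma). *col-42*, with 2000.5, 2842, 2673 and 2786 in RAGA-1::AID Neuronal and 1684, 1448, 1543 and 1474 in wild type, showed replicate 1 as the lowest of the depleted group too (log2 fold change 0.73, adjusted p = 3.6e-03, limma). *col-98* and *col-166* had log2 fold changes of 0.83 and 0.71 (adjusted p = 4.8e-03 and 3.5e-03, limma), again with replicate 1 the lowest. Single collagens reached 2.90 without being called, and the 6 epidermis markers tested were above 0 with 0 calls. *col-103* stayed called with each library left out, while *col-42*, *col-166* and *col-98* did so in 3, 3 and 1 of the 8 fits. Without auxin the list had a median of 0.11. The values of *col-103*, *col-98*, *col-42* and *col-166* there were 0.38, 0.34, 0.28 and 0.09, and none was called there or in the interaction.

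Among 57 UDP-glucuronosyltransferase genes, whose products attach sugars to lipophilic compounds, 3 rose and 0 fell (5.26% against 0.89% of all genes). *ugt-23*, with 433, 398, 432 and 405 normalized counts in RAGA-1::AID Neuronal and 313, 352, 321 and 333 in wild type, was the most abundant of them (log2 fold change 0.34, adjusted p = 1.1e-03, limma) and kept its call in all 8 leave-one-out fits. *ugt-18* and *ugt-9* had higher fold changes, 1.82 and 1.78 (adjusted p = 2.8e-03 and 6.5e-03, limma), at means of 22.7 and 18.7 normalized counts in RAGA-1::AID Neuronal and 5.96 and 4.11 in wild type, and kept their calls in 3 and 1 of the 8 fits. *ugt-53* had a log2 fold change of -0.74 and did not pass (adjusted p = 0.020, limma). Glutathione S-transferases and cytochrome P450 genes held 0 calls among 37 and 58, numbers at which the 1.19% called over all genes would give few calls or none.

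**Figure D3:**
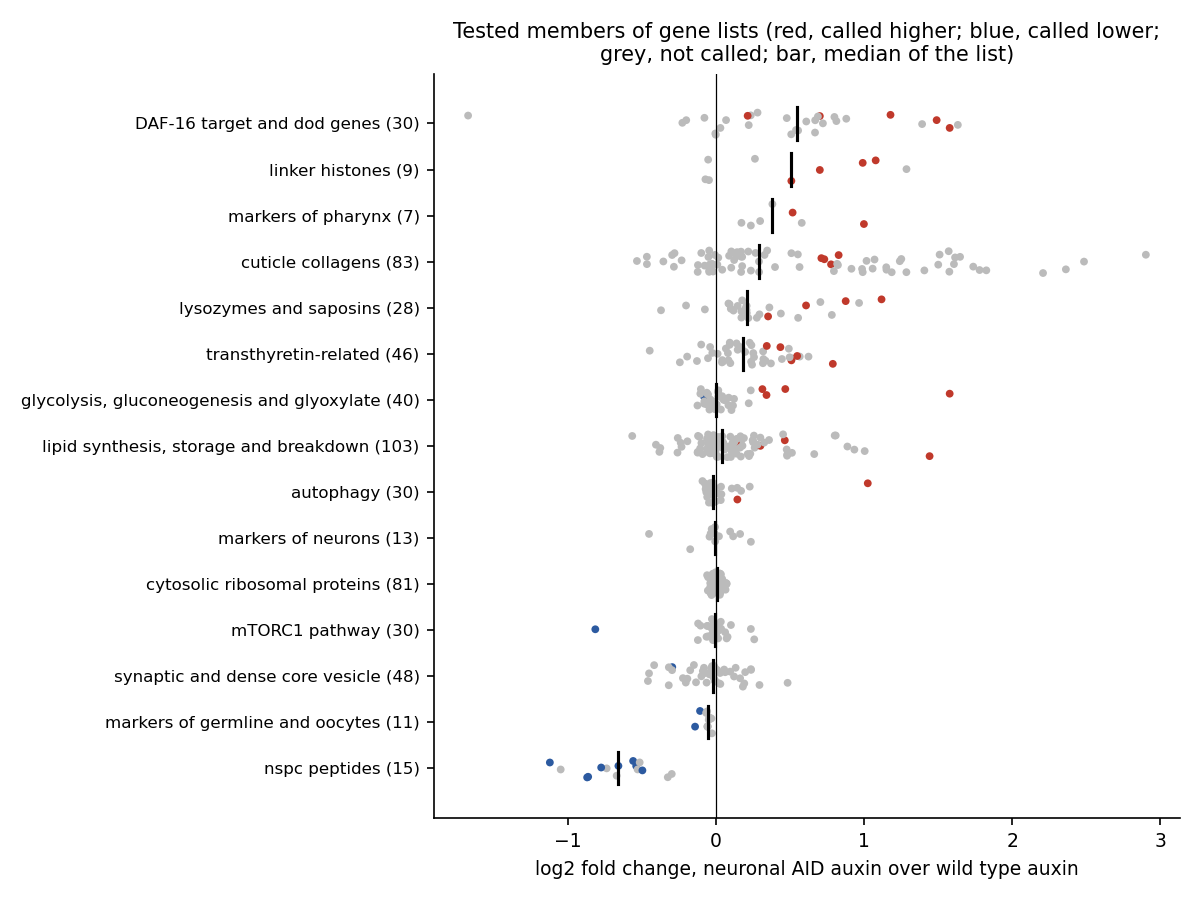
Log2 fold change, RAGA-1::AID Neuronal auxin over wild type auxin, of each tested member of 15 gene lists (points), with the number tested in brackets and the median of the list as a black bar. All 15 *nspc* genes lie below 0 and all 7 pharynx markers above 0, while the cytosolic ribosomal proteins stay between -0.06 and 0.07.

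All 7 pharynx markers tested had values above 0, with a median of 0.38, and 2 were called higher (28.6% against 0.89% of all genes). *myo-2*, the myosin heavy chain of pharyngeal muscle, had 766, 838, 983 and 893 normalized counts in RAGA-1::AID Neuronal, against 548, 573, 729 and 582 in wild type (log2 fold change 0.52, standard error 0.11, adjusted p = 9.0e-03, limma). *tnt-4*, a troponin T of the pharynx, had 70.2, 84.1, 104.4 and 93.7 in RAGA-1::AID Neuronal, against 31.3, 48.0, 58.8 and 38.9 in wild type (log2 fold change 1.00, standard error 0.21, adjusted p = 9.9e-03, limma). In both genes replicate 3 was the highest library of either group. *myo-1* lay at the threshold without passing it (log2 fold change 0.58, adjusted p = 0.010, limma). *pha-4*, the FOXA factor that specifies the pharynx, stood at 137 ± 6.85 in RAGA-1::AID Neuronal and 95.1 ± 20.7 in wild type (SD, n = 4 each, log2 fold change 0.54, adjusted p = 0.051, limma), and the splicing factor gene *sfa-1* at 0.11 (adjusted p = 0.31). The calls of *myo-2* and *tnt-4* held in 2 of the 8 leave-one-out fits each. Without auxin the markers had a median of 0.12.

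The transgene drives TIR1 in neurons. Of 48 synaptic and dense core vesicle genes 0 rose and 1 fell (2.08% called, against 1.19% of all genes): *pgal-1*, which takes part in the amidation of neuropeptides, had 272, 305, 321 and 307 normalized counts in RAGA-1::AID Neuronal, against 384, 367, 390.0 and 338 in wild type (log2 fold change -0.29, standard error 0.06, adjusted p = 9.2e-03, limma). That call held in 1 of the 8 leave-one-out fits. *egl-3*, the proprotein convertase that cuts neuropeptide precursors, had a value of -0.17 that did not pass (adjusted p = 0.024, limma). *tom-1*, a tomosyn that restrains vesicle release, and *cab-1*, which is tied to synaptic transmission, had log2 fold changes of 0.48 and 0.18 and fell short of the threshold (adjusted p = 0.013 each, limma), as did the receptor gene *frpr-5* at 0.59 (adjusted p = 0.16). Both count tests on the recovered reads called *tom-1* (adjusted p = 8.6e-03 in edgeR, 6.0e-04 in DESeq2) and *cab-1* (9.65e-03 and 1.2e-03), but not *frpr-5*. In limma *tom-1* and *cab-1* were each called in 1 of the 8 leave-one-out fits. The 0 rises of this list thus rest on the test chosen. FMRFamide-like peptides, neuropeptide-like proteins and neuropeptide receptors held 0 calls among 30, 58 and 51 tested, numbers at which the share over all genes would give few calls or none. At an unadjusted p under 0.05, 2440 genes of all those tested were below the threshold in limma.

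Of 24 genes of monoamine synthesis and transport, 1 rose (4.17% against 0.89% of all genes). *cat-4*, the GTP cyclohydrolase that makes the cofactor for dopamine and serotonin synthesis, had 701, 795, 792 and 709 normalized counts in RAGA-1::AID Neuronal, against 509.9, 533, 605 and 621 in wild type. All 4 were above the highest wild type library (log2 fold change 0.40, standard error 0.08, adjusted p = 7.3e-03, limma), and the call held in 2 of the 8 leave-one-out fits. It is also made in the epidermis. *pcbd-1*, which recycles the same cofactor, had 0.36 (adjusted p = 0.074, limma), and the receptor genes *mod-1* and *octr-1* had -0.52 and -0.43 (adjusted p = 0.29 and 0.28).

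Among called genes that averaged at least 50 normalized counts over the 8 libraries, the largest rises by fold were in genes without an assigned role. *D1086.9* (WBGene00008396, chromosome V, 14104270 to 14106330) had 14.8, 771, 397 and 206 normalized counts in RAGA-1::AID Neuronal, against 0, 5.42, 4.97 and 0.846 in wild type. Its neighbour *H39E23.3* (14107811 to 14110051) had 169, 1682, 799 and 799.9 in RAGA-1::AID Neuronal, against 42.4, 123, 77.8 and 74.5 in wild type. In both genes replicate 1 is the lowest and replicate 2 the highest of the depleted group, and replicate 1 is the lowest in wild type. The log2 fold change of *D1086.9* was 5.94 (standard error 1.102, adjusted p = 3.9e-03, limma), or 4.88 with a pseudocount of 4, and that of *H39E23.3* 3.12 (standard error 0.65, adjusted p = 8.9e-03, limma). Outside RAGA-1::AID Neuronal on auxin, *D1086.9* reached 10 normalized counts only in replicate 2 of that strain without auxin (15.5) and replicate 3 of RAGA-1::AID Somatic without auxin (10.8). It therefore passed the filter only through the group in which it is high. Another gene of the same region, *cest-1.1*, a carboxylesterase, had 66.5, 222, 184 and 131 in RAGA-1::AID Neuronal and 10.2, 35.6, 39.7 and 25.4 in wild type (log2 fold change 2.43, adjusted p = 6.7e-03, limma). *D1086.9*, *cest-1.1* and *H39E23.3* kept their calls in 3, 2 and 1 of the 8 leave-one-out fits.

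More evenly spread over the libraries were the rises of *Y54G2A.36* and *magu-3*. *Y54G2A.36* had 745, 535, 528 and 528 normalized counts in RAGA-1::AID Neuronal, against 213, 241, 246 and 314 in wild type (log2 fold change 1.199, standard error 0.15, adjusted p = 6.0e-05, limma). *magu-3*, of the membrane-associated guanylate kinase family, had 61.0, 86.5, 70.9 and 82.0 in RAGA-1::AID Neuronal, against 18.6, 38.7, 31.5 and 23.7 in wild type (log2 fold change 1.42, adjusted p = 1.2e-03, limma). Neither overlapped between groups and both calls held with each library left out. The rest of the 15 largest rises among genes at this level, apart from those already given, had log2 fold changes from 1.15 to 1.58: the F-box gene *fbxc-18*, the chromodomain gene *cec-8*, *exc-13*, *sdz-28*, one of the zygotic genes that depend on SKN-1, *fipr-26* and *F15B9.6*. Their adjusted p were 2.7e-03 to 9.9e-03 in limma, and their calls held in 1 to 6 of the 8 fits.

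The *nspc* genes encode nematode-specific peptides of group c, small proteins whose roles are not established. Of 15 tested, 0 rose and 8 fell, 53.3% against 0.297% of all genes, all 15 had values below 0 and the median was -0.66. Summed over the family, the level was 2476 to 2922 normalized counts in RAGA-1::AID Neuronal on auxin and 3974 to 4282 in wild type on auxin. Without auxin the sums overlapped, at 3636 to 4388 in RAGA-1::AID Neuronal and 3867 to 4291 in wild type, and the median log2 fold change was -0.04. The family's genes are alike and reads may be split among them, so that single members are less certain than the family.

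*nspc-2* had 224, 272, 274 and 256 normalized counts in RAGA-1::AID Neuronal on auxin, against 449, 459.8, 466 and 487 in wild type on auxin. The highest depleted library was far below the lowest wild type one (log2 fold change -0.86, standard error 0.09, adjusted p = 1.0e-05, limma). Its strain difference on auxin was below that without auxin by 0.93 on the log2 scale (interaction adjusted p = 1.9e-03, limma). Next to it on chromosome X, between 8534672 and 8542283, lie *nspc-1*, *nspc-4* and *nspc-7*, which fell by 0.87, 0.77 and 0.66 on the log2 scale (adjusted p = 6.0e-05, 3.5e-05 and 2.3e-03, limma). *nspc-12*, with 333, 389, 403 and 356 in RAGA-1::AID Neuronal and 528, 546, 542 and 562 in wild type, and *nspc-13* beside it fell by 0.56 and 0.54 (adjusted p = 1.2e-04 and 1.1e-03). The interaction of *nspc-4*, *nspc-12* and *nspc-1* had adjusted p of 0.012, 0.016 and 0.029 in limma, above the threshold. *nspc-20* (-0.50, adjusted p = 2.0e-03) and *nspc-19* (-1.12, adjusted p = 8.4e-03, named after its values were seen) complete the 8. *nspc-1*, *nspc-2*, *nspc-4*, *nspc-12* and *nspc-13* kept their calls with each library left out, *nspc-20* lost it once, without RAGA-1::AID Neuronal auxin replicate 4 (adjusted p = 0.012), and *nspc-7* in 3 fits, with the highest value for the same library (0.013).

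The largest other fall was that of *F35E8.13*, with 75.7, 52.2, 58.1 and 70.3 normalized counts in RAGA-1::AID Neuronal, against 133, 156, 144 and 188 in wild type (log2 fold change -1.27, standard error 0.21, adjusted p = 1.5e-03, limma). *clec-190*, a C-type lectin, had 1197, 1345, 1083 and 903 in RAGA-1::AID Neuronal, against 1782, 1754, 1904 and 1761 in wild type (log2 fold change -0.68, standard error 0.10, adjusted p = 6.3e-04, limma). Its close neighbour on chromosome IV, *M199.9*, fell by 0.96 on the log2 scale (adjusted p = 9.9e-03, limma). Without auxin the log2 fold changes of *clec-190* and *M199.9* were -0.26 and -0.47, not called (adjusted p = 0.97 each, limma). *F35E8.13* and *clec-190* kept their calls with each library left out and *M199.9* did so in 1 of the 8 fits. Smaller falls among the 15 largest were those of *C25E10.10*, *ctsa-3.1*, a cathepsin A homologue, *R102.2* and *W10G11.3*, at -0.59, -0.56, -0.53 and -0.42 (adjusted p from 5.6e-03 to 7.6e-03 in limma). Their calls held in 0 to 2 of the 8 fits.

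All 11 germline and oocyte markers had values slightly below 0, from -0.14 to -0.03, and 2 were called lower (18.2%, against 0.297% of all genes). They were *oma-2*, needed for oocyte maturation, with 21106, 20704, 20408 and 21066 normalized counts in RAGA-1::AID Neuronal against 22798, 21923, 22258 and 22668 in wild type (log2 fold change -0.11, adjusted p = 7.6e-03, limma), and *nos-2*, a Nanos homologue, at -0.14 (adjusted p = 9.7e-03). For *oma-2* the groups were close but did not overlap. *rme-2*, the yolk receptor of the oocyte, and *puf-5* had -0.05 and -0.07 (adjusted p = 0.18 each, limma). Of 17 eggshell and egg activation genes 1 rose and 1 fell (11.8% called, against 1.19% of all genes). *cpg-3*, an eggshell proteoglycan, had 21388, 21359, 20223 and 21135 in RAGA-1::AID Neuronal, against 19012, 17981, 18486 and 18718 in wild type (log2 fold change 0.18, standard error 0.02, adjusted p = 2.6e-04, limma), while *egg-6* fell by 0.12 (adjusted p = 3.1e-03). *egg-5* and *mbk-2*, which act in the oocyte to embryo transition, had -0.16 and -0.08 without passing (adjusted p = 0.018 and 0.021, limma). *cpg-3* kept its call with each library left out, *egg-6*, *oma-2* and *nos-2* in 5, 2 and 0 of the 8 fits. The 8 embryo markers held 0 calls, as the share over all genes would give for so few genes, with 6 above 0. Among them *tbx-37* had a log2 fold change of 0.88 (adjusted p = 0.035, limma), *hlh-1* 0.59, *nhr-25* 0.39 and *pal-1* -0.12.

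Without auxin the strains were close. Between RAGA-1::AID Neuronal and wild type, *raga-1* was the only gene called, 1 of 13150 (0.0076%), with 654 genes at an unadjusted p under 0.05 in limma. edgeR and DESeq2 called the same single gene. After it, the smallest p were those of *rgs-1*, *fbxb-93*, *madf-5* and *F54D5.5*, with adjusted p of 0.46 to 0.67 in limma. *F54D5.5* (chromosome II, from 11564381) and *rgs-1* had log2 fold changes of -0.12 and -0.53 on auxin and -0.10 and -0.58 without it. *F54D5.5* was called on auxin (adjusted p = 6.3e-03, limma) and *rgs-1* was not (adjusted p = 0.020), and their interactions were -0.02 and 0.05 on the log2 scale (adjusted p = 0.98 and 0.99), which does not show that the differences were the same with and without auxin.

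The genes called on auxin were followed into the libraries without auxin, which the calls did not use except for the filter and the shared spread. Of the 117 that rose, 103 also had strain differences above 0 without auxin, against 61.8% of all genes above 0 on auxin, but with a median of 0.11 in place of 0.63. Of the 39 that fell, 29 were below 0 (against 61.1%), with a median of -0.04 in place of -0.26. In 4 of the rises and 9 of the falls, *raga-1* among them, the value without auxin was at least 50% of that on auxin. The test of the difference itself, the interaction of strain and auxin, called 2 genes (0.0152%), *lea-1* and *nspc-2*, with 870 genes at an unadjusted p under 0.05 in limma. DESeq2 called 21 in that test and edgeR 3. With the replicate number as a block, which the main test leaves out, 19 genes were called in the interaction and 433 on auxin, so that the number of genes for which a dependence on auxin was shown rests on that choice.

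**Figure D4:**
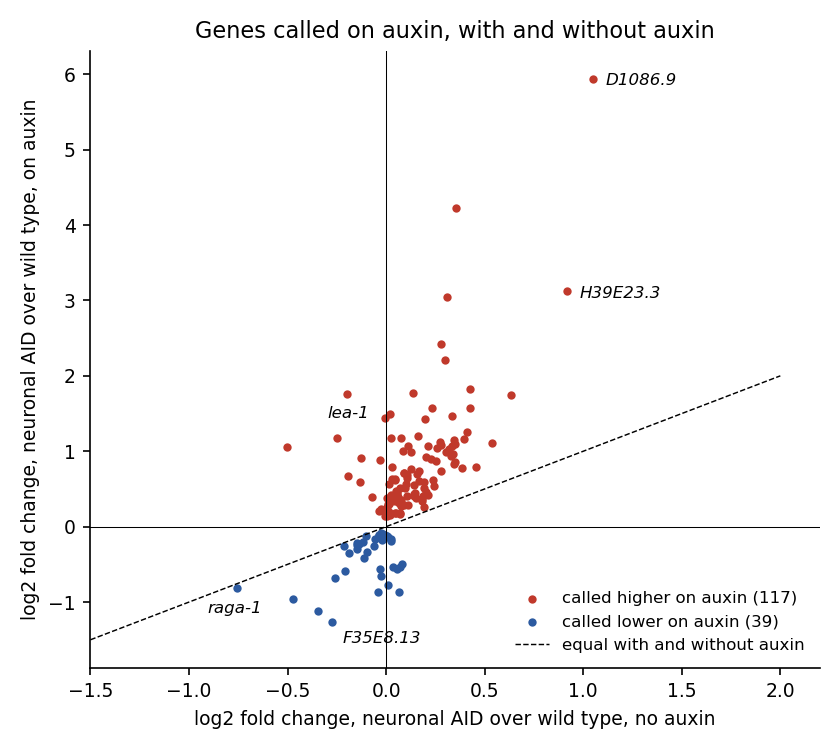
Log2 fold change of RAGA-1::AID Neuronal over wild type for the 156 genes called on auxin, without auxin (x axis) and on auxin (y axis), with the dashed line marking equal values. *raga-1* lies close to the line, at -0.76 and -0.81, and *lea-1*, at 0.02 and 1.49, lies far above it.

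In the comparisons that share libraries with the main one, auxin itself called 0 genes in wild type, while in RAGA-1::AID Neuronal auxin over no auxin gave 1.49 for *lea-1*, 1.56 for *nnt-1*, 1.19 for *pud-4* and -0.95 for *nspc-2* (adjusted p = 7.4e-07, 5.9e-04, 1.2e-04 and 3.6e-06, limma), beside 0.02, 0.21, 0.04 and -0.02 in wild type.

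RAGA-1::AID Somatic, in which TIR1 is driven in somatic tissues, shares no library with this comparison. Of the 117 rises, 103 were higher in RAGA-1::AID Somatic with auxin than without it (against 70.2% of all genes above 0), 73 of them past the threshold and 0 lower past it, where 16.01% of all genes tested were called higher by somatic depletion. Of the 39 falls, 26 were lower there (against 67.9%), 21 past the threshold, and 9 were higher past it, where 19.6% of all genes were called lower. The 9 include *F35E8.13* (log2 fold change 0.91), *nspc-20* (0.69), *nspc-13* (0.69), *ctsa-3.1* (0.68), *W10G11.3* (0.45) and *R102.2* (0.41). *M199.9* and *clec-190* were lower there past the threshold, at -1.66 and -1.32. *pud-4* had a larger value there (log2 fold change 2.91, adjusted p = 5.5e-12, limma), as did *his-24* at 2.28 and *hil-3* at 1.98, whereas *lea-1* rose by 0.47 and *pck-1* by 0.30. *magu-3* and *lipl-4*, at -0.27 and -0.06, did not pass the test there (adjusted p = 0.35 and 0.88). These values are auxin over no auxin within the strain, unlike the strain difference of the main comparison. The 38 falls other than *raga-1* were already low in RAGA-1::AID Somatic without auxin. Their mean log2 level there was 9.77 to 9.81, against 10.09 to 10.15 in wild type without auxin. No test was made of the difference between the 2 comparisons.

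The summed level of the *nspc* family was 2609 to 2832 normalized counts in RAGA-1::AID Somatic on auxin and 2023 to 2202 without auxin, with a median log2 fold change of 0.49 between them, so that the sums without auxin lay below those of every wild type library. The mean level of the 117 rises, on the log2 scale, was 9.33 to 9.67 in RAGA-1::AID Neuronal on auxin, 8.56 to 8.75 in wild type on auxin, 8.68 to 8.88 and 8.58 to 8.72 in the same strains without auxin, and 9.22 to 9.36 with and 8.52 to 8.75 without auxin in RAGA-1::AID Somatic. In each of the 4 groups of RAGA-1::AID Neuronal and wild type, replicate 1 had the lowest value.

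**Figure D5:**
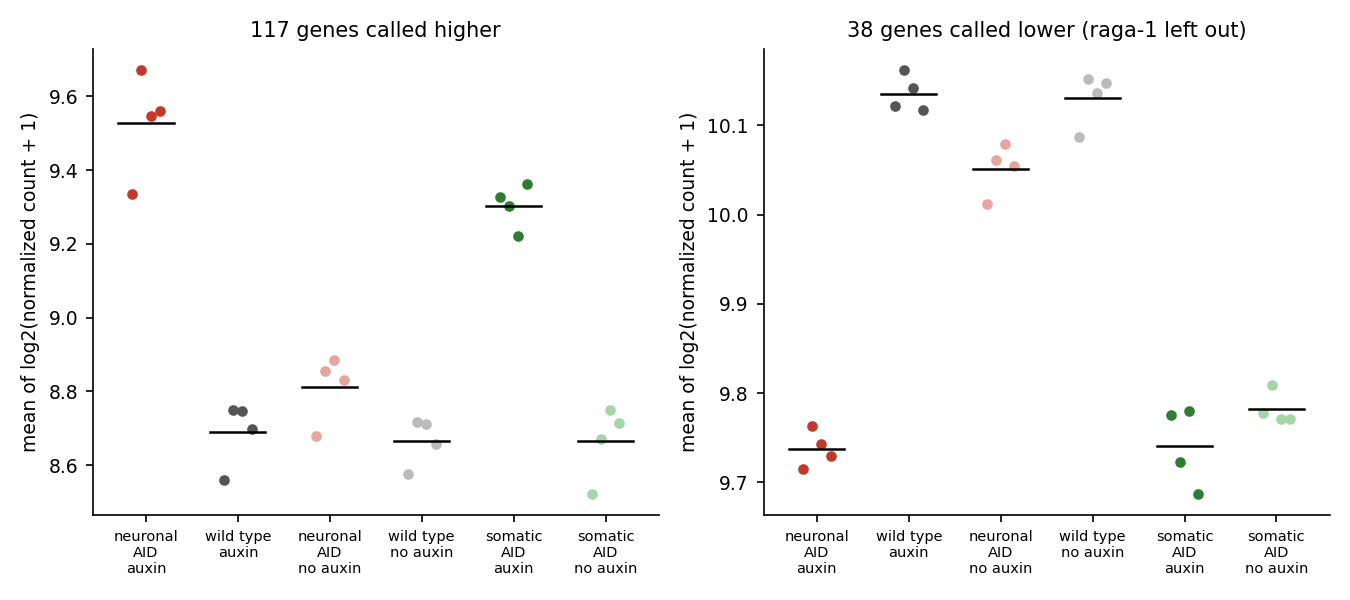
Mean of log2(normalized count + 1) over the 117 genes called higher (left) and 38 called lower, without *raga-1* (right), in each library of the 6 groups (points), with group means as bars. The genes were called on the difference between the first 2 groups, and the other 4 entered the choice only through the filter and the shared estimate of the spread. RAGA-1::AID Somatic on auxin lies at 9.22 to 9.36 on the left, and on the right both RAGA-1::AID Somatic groups lie below 9.81.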

How the data were processed

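Adult *Caenorhabditis elegans* of 3 strains were sequenced with and without auxin, as poly(A) RNA in paired reads of 50 bp, with 4 replicates per group raised on separate days from separate thaws. The authors quantified reads with Salmon 1.4.0 against WBcel235 transcripts and normalized with DESeq2 1.34.0 under R 4.1.2. Their deposited table holds gene level signal values, read counts divided by 1 size factor per library and not rounded. All values came out as whole reads within 0.01 once the size factors were recovered, so depth is known from them. Gene names came from an Ensembl 115 table: 19793 genes had a symbol, 2103 a sequence name and 86 an ID only, and 47 IDs share a symbol with another.

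The main test was limma 3.58.1 in R 4.3.3, with an intensity trend, on log2(normalized count + 1), with 1 mean for each of 6 groups over all 24 libraries. Fold changes are on that scale, which understates changes of low genes. Genes with at least 10 normalized counts in 4 libraries were kept, and those at or below an adjusted p of 0.01 were called. The recovered reads were also tested with edgeR 4.0.16 and DESeq2 1.42.0, and the code was tested on simulated data. Alternatives were other pseudocounts, filters, scalings, sample sets, thresholds and the omission of each library. Figures were drawn with matplotlib 3.10.9. The members and gene lists were chosen with earlier results of these data known, so lists are described by counts and medians, with no set test.

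Named genes were *raga-1*, *let-363*, *rsks-1*, *rab-3* and genes the study names, the 15 largest rises and falls among called genes whose groups did not overlap and whose mean over the 8 libraries reached 50 normalized counts, the 4 members of each described list with the smallest adjusted p, and 5 genes each from the comparison without auxin and from the interaction, again by smallest adjusted p. Others are marked as chosen after their values were seen, or given as examples of a list. 1 gene on that list had no match among the names and has no value here.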

Additional observations from a re-analysis of the deposited data

Results flagged for a closer look

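Among the named genes, 220 sets of 4 libraries (each gene in each group of the main comparison) were examined for a library far from the other 3, by Dixon's criterion at its 95% critical value. It marked 14 (6.36%), where chance gives about 5%.

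In RAGA-1::AID Neuronal on auxin, the following libraries stood apart. *Y54G2A.36* had 745 normalized counts in replicate 1 and 528 to 535 in the others, all above wild type. Replicate 2 was low for *mbk-2* (15639, others 15986 to 16024) and *pal-1* (3667, others 3952 to 4001). Replicate 3 was high for *hsp-12.2* (133, others 94.8 to 99.7), the muscle myosin gene *myo-5* (476, others 394 to 408) and *octr-1* (93.6, others 61.0 to 65.3). Replicate 4 was high for *nos-2* (5780.1, others 5571 to 5590.4) and low for *rsks-1* (8175, others 8577 to 8611).

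In wild type on auxin, replicate 1 was low for *dbt-1* (2835, others 2997 to 3013), *frpr-5* (31.3, others 58.8 to 63.5) and *nspc-4* (313, others 364 to 373), and high for *fipr-26* (50, others 25.4 to 29.4). Replicate 2 was high for *fat-2* (9777, others 8043 to 8239) and low for *puf-5* (37480.3, others 38192 to 38277). Of the genes marked in either group, *Y54G2A.36*, *nos-2*, *nspc-4*, *fipr-26* and *fat-2* were called. Without the library marked, *nos-2* lost its call (adjusted p = 0.0142, limma) and the other 4 kept theirs.

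For 2 genes the strain difference on auxin departed from that without auxin in a test of the difference itself. The interaction was 1.47 on the log2 scale for *lea-1* and -0.929 for *nspc-2* (adjusted p = 4.8e-04 and 1.9e-03, limma), with RAGA-1::AID Neuronal on auxin the group that stood apart from the other 3 in both genes.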

How the results depend on the processing

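The count of 156 genes on auxin lay between 113 and 218 with a pseudocount of 0.5 or 4, no filter, a filter at 50, TMM or quantile scaling, edgeR and without the RAGA-1::AID Somatic libraries. Quantile scaling called 99 higher and 51 lower (66.0% higher, against 75% in the main test). Counts moved further with only the compared groups in the fit (70), no intensity trend (87), DESeq2 (388), an adjusted p of 0.05 (480) and a log2 fold change of at least 1 (35). Replicates 1 and 4 alone gave 13, and 2 and 3 alone 23. Leaving out 1 library gave 59 to 143. The 156 genes were all called by edgeR and DESeq2. Both also called *tom-1*, *cab-1*, *myo-1* and *pept-1*, which the main test did not. Why the counts moved was not tested.

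The 1 gene without auxin became 2 with replicates 1 and 4 alone or 2 and 3 alone, 0 at a log2 fold change of at least 1, and 1 to 2 with 1 library left out. The 2 genes of the interaction became 4 with a pseudocount of 4, 17 at an adjusted p of 0.05, 1 at a log2 fold change of at least 1, 21 in DESeq2, 0 with either pair of replicates alone, and 2 to 4 with 1 library left out. The distance between group centres was 16.17 over 100 genes (exact permutation p = 0.0857).

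With the replicate number as a replicate block, 433 genes were called on auxin (317 higher, 116 lower, all 156 among them) and 19 in the interaction. Deviations of same-numbered libraries correlated at 0.224, 0.169, 0.242 and 0.0112 on auxin and at 0.234, 0.18, 0.168 and 0.102 without it. A correlation over 0.1 in every pair was the criterion for pairing, which the libraries without auxin met and those on auxin missed in 1 pair. On auxin, 3 of 4 RAGA-1::AID Neuronal libraries correlated best with their own number. Replicates were collected on separate days, and whether libraries of different groups with 1 number share a day is not given in the sources used here.

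Sign changed only for 3 genes that were never called. *let-363* was at -0.002358 with replicates 1 and 4 alone and between -0.003139 and 0.03969 with 1 library left out. *rsks-1* lay between -0.003398 and 0.0343 with 1 left out, and *mod-1* was at 0.09874 with replicates 2 and 3 alone. The calls of *ugt-9*, *ugt-18* and *lipl-4* rest on low counts, and *D1086.9* passed the filter only through RAGA-1::AID Neuronal on auxin.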

Other observations

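Called genes outside the naming rule, chosen after their values were seen, include further rises with large folds at low counts. *W01C9.2* (chromosome II, 8536360 to 8538652) had 60.03, 84.9, 46.3 and 53.3 normalized counts in RAGA-1::AID Neuronal on auxin, against 0, 6.19, 2.48 and 3.39 in wild type on auxin. No library without auxin of these strains was above 3.19 (log2 fold change 4.23, adjusted p = 1.8e-04, interaction adjusted p = 0.058, limma). Within these strains it reached the 10 normalized counts of the filter only in RAGA-1::AID Neuronal on auxin, the group in which it is high. *pqn-73*, its neighbour on the same strand (8540712 to 8545393), had 59.1, 57.96, 61.1 and 107.6 in RAGA-1::AID Neuronal, against 13.6, 12.4, 23.2 and 10.2 in wild type (log2 fold change 2.21, adjusted p = 4.2e-03, limma).

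3 genes for SKP1-related proteins, parts of ubiquitin ligases, were called higher. *skr-9* averaged 250.3 ± 29.1 in RAGA-1::AID Neuronal and 117 ± 17.2 in wild type, and *skr-8*, beside it on chromosome IV, 337 ± 36.1 and 176 ± 19.02 in the same order (SD, n = 4 each, log2 fold changes 1.09 and 0.93, adjusted p = 7.0e-03 and 7.5e-03, limma). *skr-7* had a log2 fold change of 0.45. The 3 are alike in sequence, so reads may be shared among them. *sepa-1*, which like *epg-2* serves the autophagy of P granule proteins in the embryo, had 489, 629, 617 and 639 in RAGA-1::AID Neuronal and 296, 382, 349 and 338 in wild type (log2 fold change 0.79, adjusted p = 6.7e-03, limma).

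Among falls, *mml-1*, a Mondo family transcription factor, was at 1332 ± 40.2 in RAGA-1::AID Neuronal and 1554 ± 77.5 in wild type (SD, n = 4 each, log2 fold change -0.22, adjusted p = 4.2e-03, limma), and *myrf-1*, a transcription factor of moulting and neuronal rewiring, at 889 ± 56.1 and 1062 ± 11.6 in the same order (log2 fold change -0.26, adjusted p = 7.0e-03). Their log2 fold changes without auxin were -0.15 and -0.22, not called. *inx-9*, a gap junction innexin, was at 407 ± 19.4 in RAGA-1::AID Neuronal and 514 ± 16.8 in wild type (SD, n = 4 each, log2 fold change -0.34, adjusted p = 7.1e-04, limma).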
